A study of Mus musculus with 12 samples.

Results

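A set of 7 genes was followed across the libraries, 3 lead genes (Cryz, Ptdss1 and Cox15) and 4 neighbours whose exons overlap theirs on the opposite strand. The neighbours are Tyw3 beside Cryz, Mterf3 beside Ptdss1, and Entpd7 and Cutc at either end of Cox15. Another gene that overlaps Ptdss1, 4933433G19Rik, is outside the set and described apart. The set is 7 of the 24421 genes in the count table. The lead genes were chosen by their values in silencing of β-catenin, where they rose most among the genes that passed the test without overlap between the groups, so their change there is a description and carries no test. RNA came from SMCC, an immortalized mouse small cholangiocyte line, in 12 libraries with 3 in each of 4 groups. The siRNA groups were transfected for 24 hr with the reagent RNAiMAX, carrying either a control siRNA (si-CTL) or an siRNA against the β-catenin gene Ctnnb1 (si-Ctnnb1). The plasmid groups were transfected for 48 hr with the reagent Lipofectamine 3000, carrying a plasmid for either green fluorescent protein (eGFP) or the S45Y mutant of β-catenin, which is stable (S45Y). All 4 groups are transfected cells of 1 line, no untransfected group was analysed here, and the share of cells that took up siRNA or plasmid is not given in the sources used here. The labels do not say that the 3 libraries of a group came from separate cultures, so p-values measure only the spread between these libraries.

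The 7 genes have unrelated roles. Cryz encodes zeta-crystallin, an NADPH-dependent quinone reductase that is also known to bind AU-rich RNA, and Tyw3 encodes a methyltransferase of wybutosine synthesis, the modification of a base beside the anticodon of phenylalanine tRNA. Ptdss1 encodes phosphatidylserine synthase 1, which makes phosphatidylserine from phosphatidylcholine, and Mterf3 encodes a mitochondrial factor that limits transcription of mitochondrial DNA. Cox15 encodes the enzyme that converts haem O to haem A, the haem of cytochrome c oxidase, Entpd7 an intracellular enzyme that splits nucleoside triphosphates, and Cutc a copper-binding protein. β-Catenin links cadherins to the cytoskeleton and, when it is not degraded, works with TCF/LEF factors as a co-activator of transcription. Genes that overlap on opposite strands share stretches of DNA but are transcribed into different RNAs, and a count per gene separates them only where reads lie outside the overlap or where the strand of the read is used.

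The Cryz and Tyw3 genes are head-to-head on chromosome 3 of mm10. Cryz runs on the plus strand from 154596711 to 154623182 and Tyw3 on the minus strand from 154576431 to 154597104. Their exons share chr3:154596853-154597104, 252 bases that are the whole first exon block of Tyw3 (untranslated and coding) and lie in the first exon block of Cryz (untranslated). RefSeq lists 2 starts of Cryz on this build, at 154596711 and at 154597197, and the second lies past the annotated 5′ end of Tyw3, outside the shared bases. The stretch before the first start (chr3:154596461-154596710, plus strand, GRCm38.p6, the assembly behind mm10) lies between the first exon blocks of Tyw3. It is shown because Cryz had the largest fold change of the 7 genes with enough counts, with an E-box (CACGTG) and a CCAAT box (ATTGG when read on this strand) in capitals.
Cryz upstream: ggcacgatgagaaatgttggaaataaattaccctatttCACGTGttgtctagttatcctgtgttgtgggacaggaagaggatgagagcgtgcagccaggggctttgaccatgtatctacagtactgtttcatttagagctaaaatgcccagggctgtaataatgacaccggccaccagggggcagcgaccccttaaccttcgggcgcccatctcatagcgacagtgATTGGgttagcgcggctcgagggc

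The Tyw3 end of the overlap (chr3:154597090-154597119, plus strand, RefSeq, GRCm38.p6) is given next, with bases of the first exon of Tyw3, from its annotated 5′ end inwards, in capitals. These bases are read by both genes, in opposite directions. The 5′ ends of Cox15 and Cutc on chromosome 19 (chr19:43752983-43753012, plus strand, RefSeq, GRCm38.p6) share only 5 exon bases in GENCODE, which are in capitals in the line after it. On the RefSeq starts, 43753000 for Cox15 and 43753023 for Cutc, they share none.
Tyw3 start: AGCCATATTGCCGCCacggtggccggagag
Cox15-Cutc starts: agcacttccgggtCAGGCgtcgtgcgcgcc

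Ptdss1 lies on the plus strand of chromosome 13 from 66932830 to 66998401, head-to-head with Mterf3 on the minus strand from 66906968 to 66933088. They share 229 bases of untranslated exon in 2 segments of 75 and 154 bases. Ptdss1 also overlaps 4933433G19Rik, a minus-strand gene from 66996819 to 67032408, by 87 bases of its last exon block, and Mterf3 overlaps Gm10767 by 33 bases. Cox15 lies on the minus strand of chromosome 19 from 43733254 to 43753000, between Entpd7 (plus strand, 43689672 to 43733697) and Cutc (plus strand, 43752996 to 43768638). Cox15 and Entpd7 are tail-to-tail and share 444 bases of 3′ untranslated exon, the longest of the 4 overlaps, and Cox15 and Cutc are head-to-head. The share of a gene's exon bases that is overlapped on the other strand ran from 0.35% for Cutc to 9.15% for Cox15, with 4.07% for Cryz, 5.6% for Tyw3, 7.36% for Ptdss1, 5.35% for Mterf3 and 4.95% for Entpd7. More than 90% of the exon bases of each gene thus lie outside these overlaps, as the map of exon blocks shows. A share of bases does not give a share of counts. In the whole table, genes with such an overlap were 24.1% of the genes matched to GENCODE and held 71.5% of the counts on matched genes. What part reads of the other strand have in the counts of the 7 genes was not tested. The strand setting of the counting and the kit's strandedness are not given in the sources used here, and the count table holds no read positions, so reads of the shared bases cannot be assigned to one gene or the other.

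**Figure D1:**
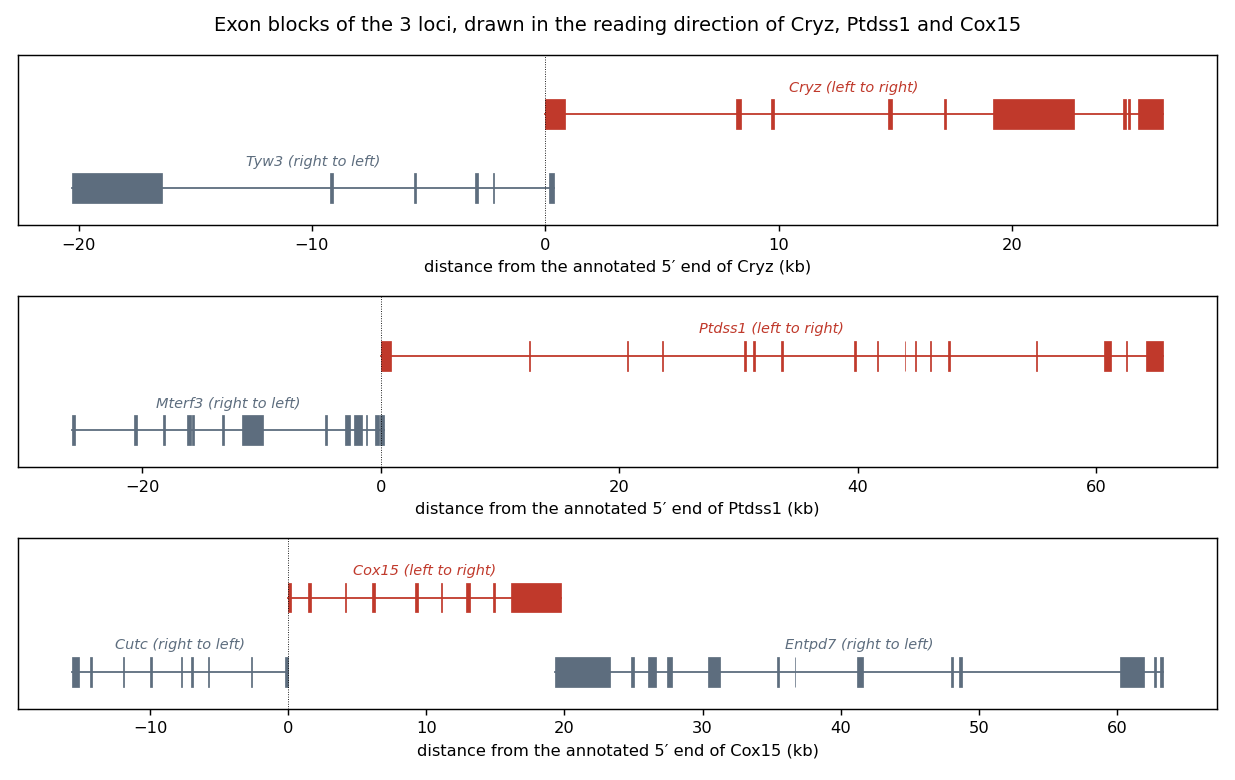
Exon blocks (boxes) of the 7 genes against distance in kb from the annotated 5′ end of Cryz (top), Ptdss1 (middle) and Cox15 (bottom), each drawn in the reading direction of that gene, with neighbours in grey running the other way. Overlaps lie at the 5′ ends for Tyw3, Mterf3 and Cutc and at the 3′ end of Cox15 for Entpd7.

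Library totals were low, from 221767 to 326686 counts in the siRNA groups and from 91468 to 122304 in the plasmid groups. Values are given as counts per 1000000 counts (CPM), on 1 scale of all 12 libraries. Ctnnb1, the silenced gene, had a log2 fold change of -2.54 in silencing (edgeR adjusted p = 0.00491), with a fall from 97.7 ± 31.6 to 16.6 ± 20.2 CPM (SD, n = 3 each). Of 12 cholangiocyte markers 8 had counts, led by Krt18, Spp1, Krt8 and Krt19, while Epcam, Onecut1, Cftr and Aqp1 were at 0 in all libraries. Their summed level was 1060 to 1460 CPM in si-CTL, 976 to 1060 in si-Ctnnb1 and 1570 to 2340 in the plasmid libraries. The leukocyte markers Ptprc and Adgre1 were at 0, and the list of 4 they belong to summed to 31.3 to 135 CPM over the libraries. Rn45s, a ribosomal RNA precursor, held 3.64% to 5.49% of counts in si-CTL, 1.61% to 2.44% in si-Ctnnb1 and 10% to 15.4% in the plasmid libraries. Both differences go with the groups in silencing too, and their part in the results was not tested. With the Rn45s row removed, the log2 fold changes in silencing were 1.38 for Cryz, 1.07 for Ptdss1 and 1.05 for Cox15. In these bulk libraries fewer cells of a type and less RNA per cell cannot be told apart.

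The lead genes held most of the counts. Over all libraries Ptdss1 had 444 counts, Cox15 304 and Cryz 218, which placed them above 93.2% to 96.4% of the genes in the table, whereas Entpd7 had 41, Mterf3 37, Tyw3 21 and Cutc 12. Per kb of all annotated exon bases, the mean level was 39.3 CPM per kb for Ptdss1, 30.4 for Cox15 and 15 for Cryz. This scale compares genes only if reads cover all these bases alike, which the counts cannot show. The neighbours had lower values on it, 3.79 for Cutc, 2.47 for Mterf3, 2.4 for Entpd7 and 1.85 for Tyw3. None of the 4 neighbours passed the filter on low counts in any comparison. They are therefore described by their counts, with exact tests over libraries and a fit without the filter.

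Cryz was highest after silencing of β-catenin. Counts were 17, 10 and 18 with si-CTL and 43 in each of the 3 si-Ctnnb1 libraries. In the plasmid groups it had 6, 8 and 10 counts with eGFP and 7, 6 and 7 with S45Y. Scaled for depth, its level was 156 ± 4.7 CPM in si-Ctnnb1, 78.2 ± 24.1 with eGFP, 75.2 ± 12.1 with S45Y and 60.9 ± 25.5 in si-CTL (SD, n = 3 each). The 3 si-Ctnnb1 libraries stood above all 9 others, and the remaining groups overlapped each other. The edgeR log2 fold change in silencing was 1.38 (SE 0.33, 95% interval 0.72 to 2.04), the one that chose the gene.

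Tyw3, on the other strand of the Cryz start, had counts of 1, 2 and 1 with si-CTL and of 3, 3 and 7 with si-Ctnnb1. Its counts were 1, 2 and 0 with eGFP and 0, 0 and 1 with S45Y. Its level was 5.08 ± 1.51 CPM with si-CTL and 15.7 ± 8.13 with si-Ctnnb1 (SD, n = 3 each), and the si-CTL and si-Ctnnb1 libraries did not overlap. With 4 and 13 counts in all, the unfiltered log2 fold change of 1.54 (SE 1.12) had an interval from -0.65 to 3.73, which takes in 0. The share of Tyw3 in the counts of the pair was 8.16% in si-CTL (95% Clopper-Pearson interval 2.27% to 19.6%) and 9.15% in si-Ctnnb1 (4.97% to 15.1%). Both intervals are wide, and whether Tyw3 kept its proportion to Cryz was not tested.

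Counts of Ptdss1 were 25, 58 and 36 with si-CTL against 103, 76 and 86 with si-Ctnnb1. They were 11, 9 and 7 with eGFP against 4, 12 and 17 with S45Y. Mean levels were 322 ± 59.5 CPM with si-Ctnnb1 against 149 ± 38.2 with si-CTL, and 118 ± 59.4 with S45Y against 86.6 ± 15.9 with eGFP (SD, n = 3 each). Every si-Ctnnb1 library was above every other library. The S45Y libraries (51 to 165 CPM) overlapped both si-CTL (123 to 193 CPM) and eGFP (73 to 104 CPM), but si-CTL and eGFP did not overlap each other. The log2 fold change that chose it was 1.06 (SE 0.23, 95% interval 0.6 to 1.53).

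Mterf3, which starts inside the first exon of Ptdss1 on the other strand, had counts of 2, 9 and 6 with si-CTL against 3, 8 and 7 with si-Ctnnb1. It had counts of 0, 2 and 0 with eGFP and none in the 3 S45Y libraries, where seeing 0 is compatible with an expected count of up to 3 over the group. Its level was thus close in both siRNA groups, 20.6 ± 10.1 and 21.6 ± 9.11 CPM (SD, n = 3 each), and low in both plasmid groups. The unfiltered log2 fold change in silencing was 0.04 (SE 0.74), and its interval from -1.41 to 1.48 takes in the 1.06 of Ptdss1, so a change of that size was not detectable at this depth. The share of Mterf3 in the pair's counts was 12.5% in si-CTL (95% Clopper-Pearson interval 7.45% to 19.3%) and 6.36% in si-Ctnnb1 (3.81% to 9.87%). The mean log2 ratio of Ptdss1 to Mterf3 was higher by 1.04 in si-Ctnnb1, a value without a test. As Ptdss1 was chosen for its rise, share and ratio had to move unless Mterf3 rose with it.

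At its far end Ptdss1 meets 4933433G19Rik, named because of that overlap after its values were seen. This row had more counts than Ptdss1, 82 to 115 per library with si-CTL, 128 to 148 with si-Ctnnb1, 22 to 37 with eGFP and 30 to 34 with S45Y. In silencing its log2 fold change was 0.35 (SE 0.16, no test), in the same direction as that of Ptdss1 but smaller. What part reads of the 87 shared bases have in either row was not tested.

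Counts of Cox15 were 17, 26 and 20 with si-CTL, 39, 51 and 51 with si-Ctnnb1, 12, 21 and 12 with eGFP and 10, 25 and 20 with S45Y. Unlike Cryz and Ptdss1, it was not highest in si-Ctnnb1 once counts were scaled. Mean levels ran from 81.1 ± 7.03 CPM in si-CTL through 144 ± 42.8 in eGFP and 170 ± 20.5 in si-Ctnnb1 to 202 ± 79.7 in S45Y (SD, n = 3 each). The upper 3 groups overlapped each other, and the si-CTL libraries, from 73.2 to 86.6 CPM, lay below every other library. The low group in the Cox15 data was thus si-CTL, which is the control of the contrast that chose the gene (log2 fold change 1.05, SE 0.28, 95% interval 0.48 to 1.62).

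Entpd7, at the 3′ end of Cox15, had counts of 6, 4 and 3 with si-CTL and again of 6, 4 and 3 with si-Ctnnb1. Its counts were 1, 4 and 1 with eGFP against 3, 2 and 4 with S45Y. Its level was 33.3 ± 9.01 CPM with S45Y, 18.9 ± 15.5 with eGFP, 17.9 ± 10.1 with si-CTL and 15.8 ± 6.07 with si-Ctnnb1 (SD, n = 3 each), with overlap between all neighbouring groups in this order of levels. The unfiltered log2 fold change in silencing was -0.13 (SE 0.85), and its interval from -1.79 to 1.54 takes in the 1.05 of Cox15, so a change of that size was not detectable in Entpd7 at this depth.

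Since Cox15 was chosen for its rise, its share of the pair had to move unless Entpd7 rose with it. The share of Entpd7 in the pair was 17.1% in si-CTL (95% Clopper-Pearson interval 9.43% to 27.5%) and 8.44% in si-Ctnnb1 (4.57% to 14%), and the mean log2 ratio of Cox15 to Entpd7 was higher by 1.15 in si-Ctnnb1, again without a test. Cutc, at the 5′ end, had counts of 0, 2 and 1 with si-CTL, 1, 1 and 4 with si-Ctnnb1, 1, 0 and 1 with eGFP and 1, 0 and 0 with S45Y. These counts were too few to place Cutc. Its unfiltered log2 fold change in silencing was 0.90 (SE 1.5, interval -2.04 to 3.83).

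**Figure D2:**
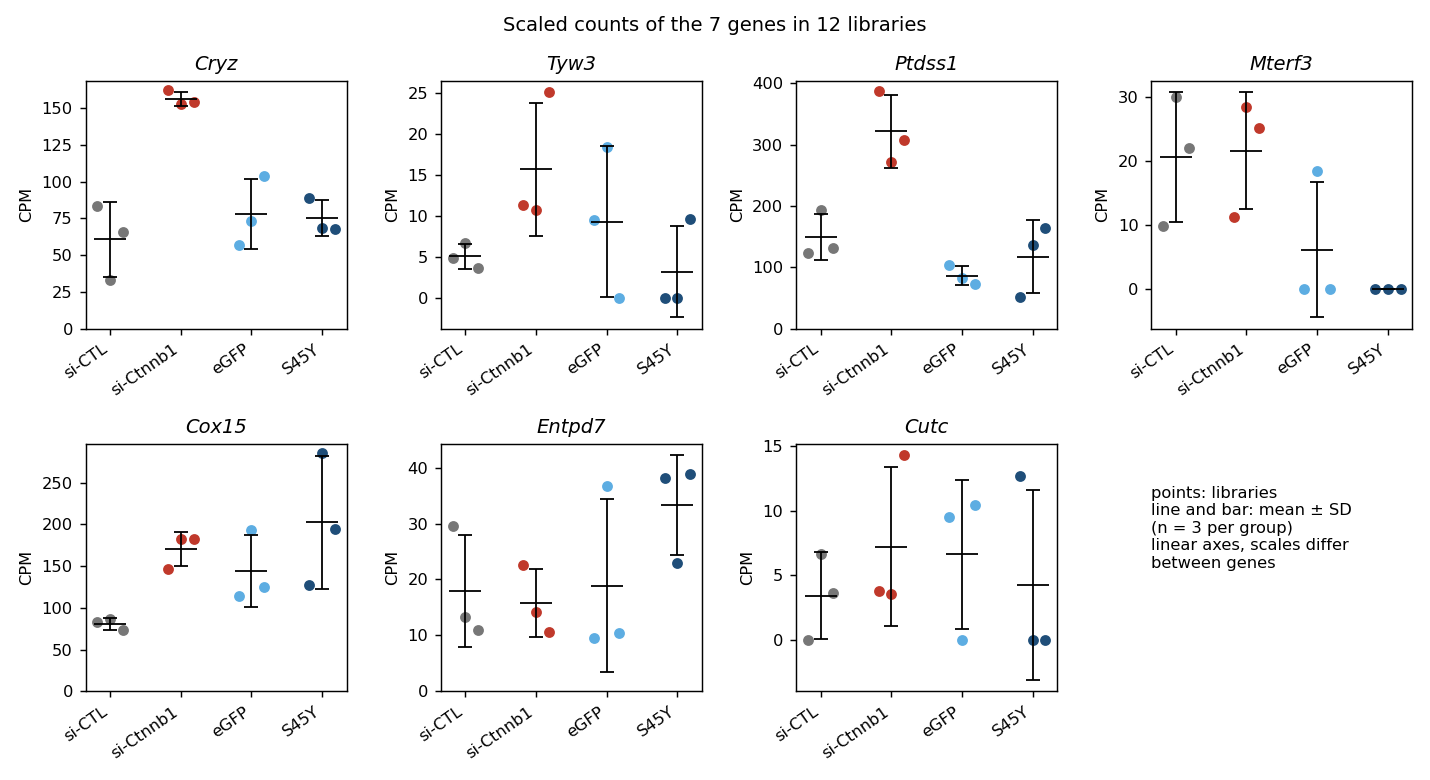
CPM of each of the 7 genes (vertical axes, linear, scaled separately) in the 12 libraries by group, with points for libraries and lines and bars for the mean ± SD (n = 3 per group). Cryz and Ptdss1 stand apart in si-Ctnnb1, Cox15 is low in si-CTL against the other 3 groups, and Mterf3 is at 0 in 5 of the 6 plasmid libraries.

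As background to the counts in silencing, 28 of 3484 genes tested (0.804%) were higher in si-Ctnnb1 at an adjusted p below 0.05 from edgeR, and all 3 lead genes were selected from these. In 311 of the 3484 genes (8.93%) every si-Ctnnb1 library was above every si-CTL library, and of the 7 genes followed here this was so for Cryz, Ptdss1 and Cox15, which were selected for it, and for Tyw3, which was not among the genes tested. The fold changes of the lead genes were the 3 highest that met the rule, and the next gene outside it was BC037032 with a log2 fold change of 0.87 (SE 0.18), against 1.05 for Cox15 just inside. The median log2 fold change of all genes tested in silencing was 0, with the middle 50% from -0.3 to 0.23.

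**Figure D3:**
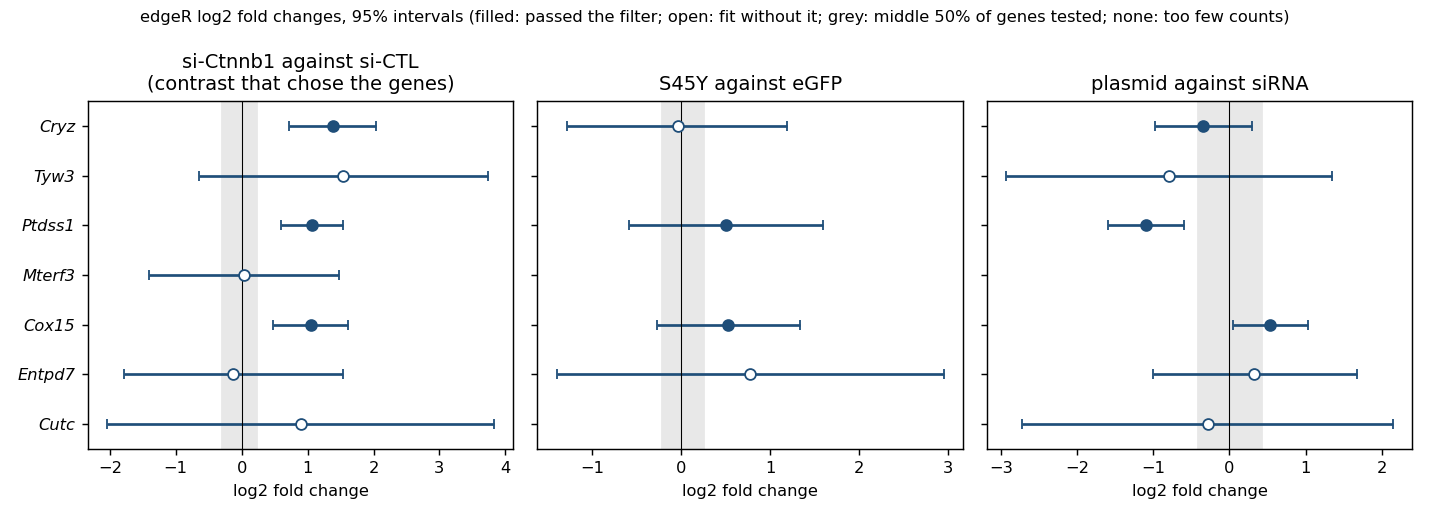
Log2 fold changes (horizontal axes) with 95% intervals of the genes in silencing (left, the contrast that chose the lead genes), activation (middle) and plasmid against siRNA libraries (right), with filled points from the fit with the filter on low counts, open points from the fit without it, and the middle 50% of genes tested in grey. No point is drawn where both sides had 3 counts or fewer or a group had none, and in the right panel the unfiltered fit lowers fold changes by a median of 0.27.

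In each of the 4 pairs the lead gene held most counts in every group. The overlap of Ptdss1 with 4933433G19Rik, which had more counts than Ptdss1, is not among these pairs. Over all 12 libraries the neighbour's share was 8.79% for Tyw3 beside Cryz (95% Clopper-Pearson interval 5.52% to 13.1%), 7.69% for Mterf3 beside Ptdss1 (5.47% to 10.4%), 11.9% for Entpd7 beside Cox15 (8.66% to 15.8%) and 3.8% for Cutc beside Cox15 (1.98% to 6.54%). These intervals cover counting error only. Such unequal pairs were common in the table. Among 1107 opposite-strand pairs with at least 100 counts together, the larger member held a median of 88.8% of the counts (middle 50% of pairs 70.9% to 96.5%), with 92% in 328 head-to-head and 84.8% in 639 tail-to-tail pairs. Of all 1847 such pairs, 674 (36.5%) had only 1 gene with enough counts to be tested in silencing, as the 4 pairs here did.

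**Figure D4:**
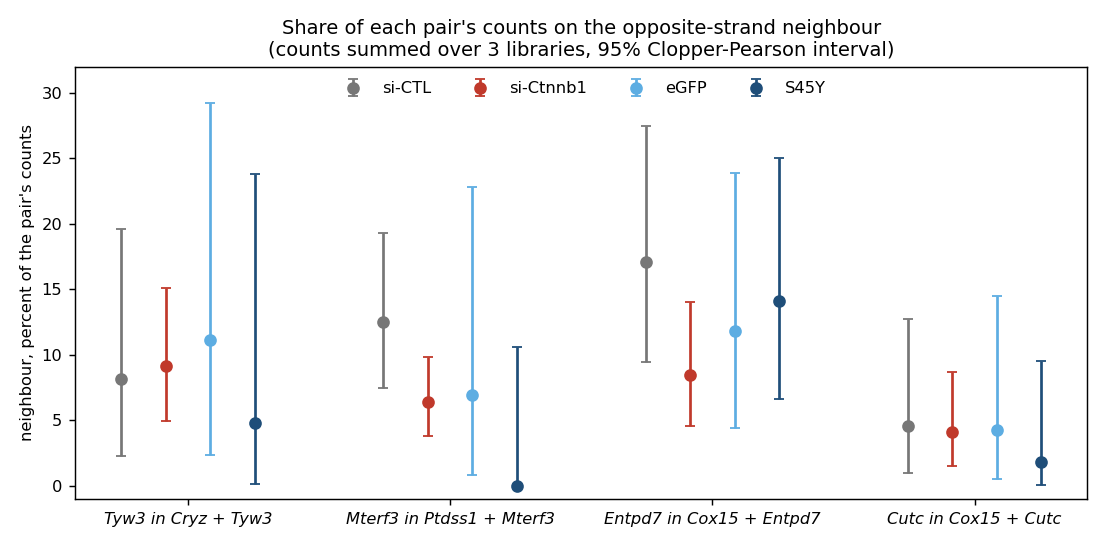
Share of the opposite-strand neighbour in the summed counts of each pair, in percent (vertical axis), by group, with bars for the 95% Clopper-Pearson interval. All shares lie between 0% and 17.1%, and the intervals of the 4 groups overlap within each pair.

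Activation of β-catenin addresses whether these genes move when the protein is stabilised rather than lost, in libraries that played no part in choosing them. Ctnnb1 itself had 6, 11 and 10 counts with eGFP and 11, 4 and 18 with S45Y, and its log2 fold change of 0.51 (SE 0.55, adjusted p = 0.989 from edgeR) did not pass. One S45Y library (45.8 CPM) lay below every eGFP library (56.8 to 104 CPM), and the labels do not say whether the S45Y transcript would be counted under Ctnnb1. Of the 7 genes only Cox15 and Ptdss1 had enough counts to be tested between S45Y and eGFP, and neither they nor any other of the 1819 genes tested passed (0% called by edgeR, with 107 genes at an unadjusted p under 0.05). The DESeq2 Wald test, run on 12569 genes, also called 0, with 166 at an unadjusted p under 0.05. Cox15 had a log2 fold change of 0.53 (SE 0.41, 95% interval -0.27 to 1.34, adjusted p = 0.974 from edgeR), and Ptdss1 one of 0.5 (SE 0.55, interval -0.59 to 1.59, adjusted p = 0.989 from edgeR). Cryz had too few counts to pass the filter, and its unfiltered value was -0.04 (SE 0.63, interval -1.28 to 1.19). The values of Cox15 and Ptdss1 thus had the same sign as in silencing, but all 3 intervals take in 0. A two-sided exact permutation test of log2 CPM, which cannot go below 0.1 with 3 against 3 libraries, gave p = 0.2 for Cox15 and Entpd7, 0.6 for Ptdss1, 0.7 for Tyw3 and 1 for Cryz, Mterf3 and Cutc. The libraries of S45Y and eGFP overlapped for every one of the 7 genes.

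The balance within a pair was taken in the same libraries as the log2 ratio of the counts of lead gene and neighbour, with 0.5 added to each. Entpd7 was the one neighbour with counts in all 6 libraries. The mean log2 ratio of Cox15 to Entpd7 went from 2.79 in eGFP to 2.37 in S45Y. The two-sided exact permutation test gave p = 0.6, not adjusted, where 3 against 3 libraries cannot go below 0.1. Where a neighbour had no count, as Mterf3 in all 3 S45Y libraries, the ratio is that of the lead gene's count to the 0.5 and moves with depth, so no test is given for the other pairs. Their differences between S45Y and eGFP were 0.55 for Cryz to Tyw3, 0.86 for Ptdss1 to Mterf3 and 0.76 for Cox15 to Cutc, and 0.32, 0.62 and 0.56 with 1 added in place of 0.5.

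The plasmid libraries were set beside the siRNA libraries, 6 against 6, to see what else the 7 genes follow. The siRNA side holds the libraries that chose Cryz, Ptdss1 and Cox15, so their values here are descriptions and carry no test, with those of the controls alone beside them. Ptdss1 was at 102 ± 42.4 CPM with plasmids and 236 ± 105 with siRNAs (SD, n = 6 each), a log2 fold change of -1.1 (SE 0.25, 95% interval -1.59 to -0.6). The libraries of both kinds overlapped, from 51 to 165 CPM and from 123 to 387 CPM. Between the control groups alone (eGFP against si-CTL), without the si-Ctnnb1 libraries in which Ptdss1 was high, the log2 fold change was -0.76 (SE 0.39). Over all genes, 487 of 2996 tested (16.3%) were lower with plasmids at an adjusted p below 0.05 from edgeR and 377 (12.6%) were higher. Without the filter on low counts, which lowers the fold changes by a median of 0.27, 744 genes were lower and 191 higher.

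Mterf3 had 2 counts in the plasmid libraries and 35 in the siRNA libraries, where 12.7 would be expected with plasmids at an equal rate. The ratio of rates was 0.158 (95% interval 0.0184 to 0.615, counting error only), and the two-sided exact permutation test of log2 CPM over 6 against 6 libraries gave p = 0.00649. In the fit without the filter its log2 fold change was -3.49 (SE 1.14, 95% interval -5.72 to -1.26, adjusted p = 0.0364 from edgeR), a size that depends on the prior count since the S45Y libraries were at 0. In that fit 744 of 14374 genes (5.18%) were lower. One eGFP library with 2 counts (18.4 CPM) lay within the siRNA range of 9.84 to 30 CPM and the other 5 plasmid libraries were at 0. In eGFP against si-CTL alone the counts were 2 and 17, with a ratio of 0.295 (0.0331 to 1.24). The difference in log2 CPM was -1.0 there, beside -1.26 over all 12 libraries, with an exact p of 0.2 where 3 against 3 libraries cannot go below 0.1. 4933433G19Rik, at the far end of Ptdss1, had a log2 fold change of -0.44 (SE 0.16) over the 12 libraries, without a test since it was named after its values were seen.

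Cox15 was at 173 ± 65.6 CPM with plasmids and 126 ± 50.7 with siRNAs (SD, n = 6 each). Its log2 fold change was 0.54 (SE 0.25, 95% interval 0.05 to 1.03) over the 12 libraries and 0.86 (SE 0.41) between the controls alone, where Cox15 had 45 counts in eGFP and 63 in si-CTL. Cryz had a log2 fold change of -0.34 (SE 0.32) over the 12 libraries and of 0.41 (SE 0.52) between the controls alone, where the high si-Ctnnb1 libraries are left out. For the neighbours other than Mterf3 the exact permutation p was 0.286 for Tyw3, 0.24 for Entpd7 and 0.944 for Cutc. Reagent, time, nucleic acid and depth all differ between plasmid and siRNA libraries and cannot be told apart, and the share of Rn45s and the level of cholangiocyte markers given above move with them.

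Few other genes of the pathways in which the 7 genes work could be tested, and none of them passed the test in silencing or in activation. Of 21 other genes of haem A synthesis and cytochrome c oxidase assembly, the pathway of Cox15, 6 were tested in each comparison. Their median log2 fold change was 0.11 in silencing, -0.39 in activation and -0.43 in plasmid against siRNA libraries, beside 0, 0.02 and 0.02 over all genes tested. With plasmids 3 of the 6 fell and none rose, beside 16.3% lower and 12.6% higher of all genes tested, and Cox15 had a positive value. They were Surf1, an assembly factor (log2 fold change -1.22, SE 0.22, adjusted p = 4.41e-06 from edgeR), Cox20, a chaperone of the subunit COX2 (-0.52, SE 0.11, adjusted p = 0.000102), and Sco2, which delivers copper (-0.45, SE 0.15, adjusted p = 0.0144).

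In the phospholipid pathway of Ptdss1, 2 of 18 other genes were tested in silencing (median log2 fold change -0.34), 1 in activation (-0.1) and 2 with plasmids (-0.05). Cept1, which makes phosphatidylcholine and phosphatidylethanolamine, fell with plasmids (log2 fold change -0.82, SE 0.26, adjusted p = 0.0131 from edgeR). Of 16 other quinone reductases and related genes listed with Cryz, 5 were tested in silencing (median 0.04), 3 in activation (-0.53) and 5 with plasmids (-0.03).

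Among the pathways of the neighbours, 3 of 11 other genes of mitochondrial transcription and ribosome assembly were tested in silencing (median log2 fold change -0.62), 1 in activation (0.21) and 2 with plasmids (0.52). Mterf4, a relative of Mterf3 that acts in mitochondrial ribosome assembly, rose with plasmids (log2 fold change 0.85, SE 0.23, adjusted p = 0.0029 from edgeR) where the counts of Mterf3 were lower. Of 10 other genes of copper handling, listed with Cutc, 4 were tested in silencing (median -0.07), 2 in activation (-0.14) and 4 with plasmids (0.11), and Ccs, the copper chaperone of superoxide dismutase 1, rose with plasmids (log2 fold change 1.23, SE 0.36, adjusted p = 0.00572 from edgeR). Of 5 other genes of wybutosine synthesis, 2 were tested in silencing (median -0.05), none in activation and 1 with plasmids (-0.39). Lcmt2 had 186 counts, Tyw5 77, Trmt5 25 and Tyw1 23, against 21 for Tyw3. None of the 7 other ectonucleoside diphosphohydrolases was tested, and Entpd5 had 49 counts, near the 41 of Entpd7.

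The genes whose log2 CPM was most like that of each lead gene over the 12 libraries differed between the 3. Cryz was most like Dnajc19, a factor of mitochondrial protein import (Pearson r 0.77), Cenpk of the kinetochore (0.76) and Dnaaf1, which assembles dynein arms (0.76). Ptdss1 was most like Cops3 of the COP9 signalosome (0.93), C530005A16Rik (0.93) and Kif3c, a kinesin (0.92). Cox15 was most like Fam210b (0.92), the mitochondrial chaperone gene Hspa9 (0.8) and Mthfd1l (0.79), a mitochondrial enzyme of one-carbon metabolism. These values describe 12 libraries that share groups and depth and were searched over 2996 genes. Between the lead genes r was 0.43 for Cryz and Ptdss1, 0.35 for Cryz and Cox15 and 0.18 for Ptdss1 and Cox15.

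Start regions from RefSeq (250 bases before to 50 after a start) were at hand for 5 of the 7 genes, with 2 for Cryz. Motifs were searched on both strands, by letters chosen after the sequences were seen, and matches are descriptions of letters only. The TCF/LEF letters (CTTTG followed by AA, TT, AT or TA) matched none of the 6 windows, and 16.9% of 32851 windows of this length hold one. CCAAT matched in Cryz, Tyw3 and Entpd7 and in 37.4% of all windows. The E-box CACGTG in the Cryz sequence printed above is in 7.15% of all windows, and the ETS letters CCGGAAG, of which 1 match lies in both the Cox15 and the Cutc window, are in 8.86%. The YY1 letters GCCATNTT (6.05% of all windows) match at the Tyw3 start, in the capitals printed above, where the window of the second Cryz start holds the same match.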

How the data were processed

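The authors filtered reads of 12 libraries with Trimmomatic 0.38, aligned them to mm10 with HISAT2 2.1.0 and counted them per gene with HTSeq 0.11.2. The deposited values are these counts, whole numbers without normalization. Strand setting, annotation and read type are not given in the sources used here. The tests were run with edgeR 4.0.16 under R 4.3.3: filterByExpr (minimum count 10, minimum total 15), TMM, the quasi-likelihood test and Benjamini-Hochberg adjustment over all genes tested, at a threshold of 0.05, on 6 libraries for silencing (si-Ctnnb1, si-CTL) and activation (S45Y, eGFP) and on all 12 for plasmid against siRNA. Exact permutation tests used log2 CPM (prior count 2), and pair ratios used counts plus 0.5. Code was tested on simulated data. Exon overlaps came from GENCODE M21, which matched 23376 symbols (95.7%), of which 5638 (24.1%) overlap another gene on the opposite strand and hold 71.5% of the counts. Totals of 91468 to 326686 counts limit precision.

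Named are the 7 genes, the 3 genes most correlated with each lead gene, the next-ranked gene, Ctnnb1 and listed genes that passed, or the 4 with most counts. A single listed gene is not reported here. Lead genes carry no test where siRNA libraries enter, since these chose them, and pair ratios are tested only where both genes have counts. Members and lists were chosen with earlier results of these data known. Alternatives were other size factors, no filter, DESeq2 1.42.0, a replicate block, 1 fit of 12 libraries, eGFP against si-CTL only, 1 added to pair counts, each library left out and, added after the data were seen, Rn45s removed.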

Additional observations from a re-analysis of the deposited data

How the results depend on the processing

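In activation, Cox15 and Ptdss1 kept their direction and stayed above the threshold of 0.05 under the alternatives run. The lead genes carry no test in silencing or in plasmid against siRNA libraries. Mterf3, untested with the filter, passed without it for plasmid against siRNA (log2 fold change -3.49, adjusted p = 0.0364 from edgeR). With eGFP against si-CTL only, 415 genes passed in place of 864, the log2 fold change of Cryz turned from -0.34 to 0.41, that of Ptdss1 went from -1.1 to -0.76, and the log2 CPM difference of Mterf3 from -1.26 to -1.0 (exact p = 0.2). That comparison has fewer samples.

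Leaving out 1 library at a time gave 31 to 49 genes in silencing (54 with all), with 34 without si-CTL replicate 1, 31 without si-Ctnnb1 replicate 2 and 32 without si-Ctnnb1 replicate 3, 0 in activation and 746 to 873 for plasmid against siRNA. In silencing Cryz then ran from 1.05 to 1.66, Ptdss1 from 0.92 to 1.31 and Cox15 from 0.97 to 1.15. For plasmid against siRNA Ptdss1 ran from -1.34 to -0.96, Cryz from -0.55 to -0.18, Cox15 from 0.3 to 0.59 and Mterf3 from -1.5 to -1.18 (exact p up to 0.0108). In activation Ptdss1 ran from 0.14 to 0.81 and Cox15 from 0.2 to 0.79, and the pair ratios from 0.06 to 1.37 (Cryz to Tyw3), 0.1 to 1.43 (Ptdss1 to Mterf3), -0.91 to -0.02 (Cox15 to Entpd7) and 0.23 to 1.67 (Cox15 to Cutc).

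With the replicate block 64 genes passed in silencing, 0 in activation and 839 for plasmid against siRNA. Same-numbered libraries did not deviate together (correlations from -0.0459 to 0.0336), so the numbers are not taken as pairs. Removing the filter lowered plasmid fold changes by a median of 0.27, with 744 genes lower and 191 higher of 14374 in place of 487 and 377 of 2996. Depth limits the neighbours, with 12 to 41 counts each.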
